A study of Homo sapiens with 4 samples.

Results

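This account covers 34 direct target genes of p53, taken from the 34500 genes that had at least 1 matched transcript, in MCF10A cells treated with TGF-β1. The 34 genes were given by name, found through the GENCODE release 29 map of transcripts to genes, and each matched exactly 1 gene. MCF10A is an established human cell line from breast epithelium, immortal but not tumour-forming, with basal features. The cells of all 4 libraries, controls included, stably expressed a scramble shRNA (a control hairpin without an intended target) and grew in medium with EGF, cholera toxin, insulin, hydrocortisone and horse serum. The control group held 2 libraries at 0 h without added TGF-β1, and in the treated group TGF-β1 had been added at 5 ng/ml, 1.5 h earlier, for both libraries. The labels call them biological duplicates numbered 1 and 2, and do not say whether a number stands for a shared day, passage or batch, so p-values measure the spread between these libraries.

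The transcription factor p53 is held at a low level in unstressed cells, mainly by the ubiquitin ligase MDM2, and is stabilised by DNA damage, ribosomal stress and oncogene activity. It binds DNA as a tetramer at a response element made of 2 copies of a short half-site, and switches on genes that arrest the cell cycle, repair DNA, lower oxidative stress, promote apoptosis and limit p53 itself. TGF-β signals through SMAD proteins, which can share promoters with p53 in epithelial cells, and the study set 1.5 h of treatment against 0 h to find mRNAs that TGF-β regulates.

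Promoters of the members were searched for the sequence p53 binds. RefSeq windows from 250 bases before to 50 bases after a start site (GRCh38.p14) were found for 25 of the 34 members, 44 windows in all. The p53 half-site, a motif of 10 bases that reads alike on both strands, occurred without mismatch in the windows of 5 of these 25 genes (20.0%), against 8.06% of all 27305 genes with a window. A full site, which is a pair of half-sites with 0 or 1 base between them and at most 2 mismatches outside the fixed bases of each core, was found in 4 of 25 genes (16.0%), against 0.67% of all genes. These were MDM2, FAS, AEN and DDB2. SESN1 and FDXR held 1 half-site without mismatch and no full site within these limits. The 2 windows below are shown because MDM2 encodes the main brake on p53 and SESN1 differed between replicates in its estimated mix of transcript starts. They are the 250 bases before a start site, at chr12:68808767-68809016 on the plus strand for MDM2 and chr6:109008989-109009238 on the minus strand for SESN1. Capitals mark the 1 full site this search found in the MDM2 window, which begins 94 bases before the start site. In the SESN1 window they mark the half-site, which begins 49 bases before its start site. Elements that depart from the fixed core bases, or that have more than 2 mismatches, are not found by this search and stay in lower case. In SESN1 the bases right after the half-site keep the fixed core bases, but the pair exceeds the mismatch limit.
MDM2: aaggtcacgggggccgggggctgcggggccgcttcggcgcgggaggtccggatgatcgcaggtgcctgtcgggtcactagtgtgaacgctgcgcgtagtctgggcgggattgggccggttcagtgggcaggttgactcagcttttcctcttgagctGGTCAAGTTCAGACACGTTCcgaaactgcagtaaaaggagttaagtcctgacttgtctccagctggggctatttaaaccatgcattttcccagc
SESN1: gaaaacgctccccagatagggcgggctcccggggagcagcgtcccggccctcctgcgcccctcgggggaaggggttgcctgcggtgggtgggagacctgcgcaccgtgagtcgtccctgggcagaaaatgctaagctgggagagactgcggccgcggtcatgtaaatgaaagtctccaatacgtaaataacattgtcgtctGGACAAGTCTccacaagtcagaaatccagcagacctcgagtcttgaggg

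FAS, AEN and DDB2 are shown because they hold the other full sites, given alone, in capitals with any base between the half-sites in lower case. They lie at chr10:88991309-88991328 for FAS, chr15:88621306-88621325 for AEN and chr11:47214979-47214999 for DDB2, all on the plus strand.
FAS: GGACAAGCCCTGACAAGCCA
AEN: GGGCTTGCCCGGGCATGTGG
DDB2: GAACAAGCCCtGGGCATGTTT
The DDB2 site shown had 0 mismatches and those of MDM2, FAS and AEN had 2 each. The DDB2 window held a further full site with 1 mismatch, at chr11:47214969-47214988, which overlaps the one shown. The start site next to the FAS match, at 88991431 on chromosome 10, carried 1.0% to 2.2% of the estimated FAS counts. The main FAS start, at 88990798, lies upstream of the match and carried 97.8% to 99.0%. A match of letters is a description of the window and was not tested for binding.

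Estimated counts came to 35737659 to 40792300 per library. In both groups replicate 2 differed from replicate 1 in composition. Ribosomal protein mRNAs took 6.84% to 6.87% of gene counts in the libraries numbered 1 and 8.73% to 8.96% in those numbered 2. The basal markers identified the cells, with KRT5 at 2023 to 2385 TPM (TPM is a level corrected for transcript length) and all 10 markers among the tested genes. The 7 luminal markers summed to 505 to 701 TPM, nearly all from the keratins KRT18 (347.2 to 454.4 TPM) and KRT8 (146.3 to 236.0 TPM), while ESR1 was at 1.09 to 1.37 TPM and PGR at no more than 0.0211 TPM. The blood and endothelial markers summed to at most 1.34 TPM, and CD3E was listed at 0 in all 4 libraries. Fibroblast markers summed to 19.8 to 28.4 TPM, of which DCN gave 17.2 to 21.3 TPM.

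Every member passed the filter on low counts and was among the 14774 genes tested. Compared per length, their summed TPM were 1425 and 1394 in control and TGF-β1 replicates 1, and 1611 and 1546 in replicates 2. The highest mean level over the 4 libraries belonged to CCNG1, the cyclin G1 gene, at 180.3 TPM, and the next to MDM2 at 160.5 TPM and TP53I3 at 120.5 TPM. In all, 12 members had a mean above 50 TPM and 6 had one below 10 TPM. The least abundant were CDIP1 at 1.98 TPM and TNFRSF10C at 0.97 TPM. The ranges of CCNG1 (144.7 to 215.3 TPM) and MDM2 (138.8 to 186.1 TPM) overlapped, so their order did not hold in every library.

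The comparison of replicate numbers held the larger differences. Each number held 1 control and 1 TGF-β1 library, so without a covariate the spread within a number includes the difference by treatment. If a number stands for 1 culture or batch, the comparison is 1 against 1. By edgeR's quasi-likelihood test, 17 of the 34 members were higher in the libraries numbered 2 and 3 were lower, at a Benjamini-Hochberg adjusted p under 0.05 over all tested genes. Over all 14774 genes the same test called 37.4%, with 16.4% higher and 21.0% lower, against 50.0% of members higher and 8.82% lower. DESeq2 called the same 20 members, 17 higher and 3 lower, against 34.1% of genes (13.4% higher and 20.7% lower). With treatment as a covariate, edgeR called 22 members and 44.9% of genes, and DESeq2 17 members and 25.6%. The median log2 difference (number 2 minus number 1) was 0.27 over the members and 0.01 over all tested genes. In 26 members the 2 libraries numbered 2 lay on 1 side of both numbered 1, as in 72.5% of all tested genes. They lay above in 21 members and below in 5, against 35.9% and 36.6% of genes. Within controls and within treated libraries, 23 members were above 0 both times and 7 below, against 41.0% and 41.1% of genes. Members with no such separation were BAX, BLOC1S2, CERS5, DDB2, EDA2R, FDXR, POLH and SUSD6. As bulk RNA was measured, fewer cells of a kind and less RNA per cell cannot be told apart.

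**Figure D1:**
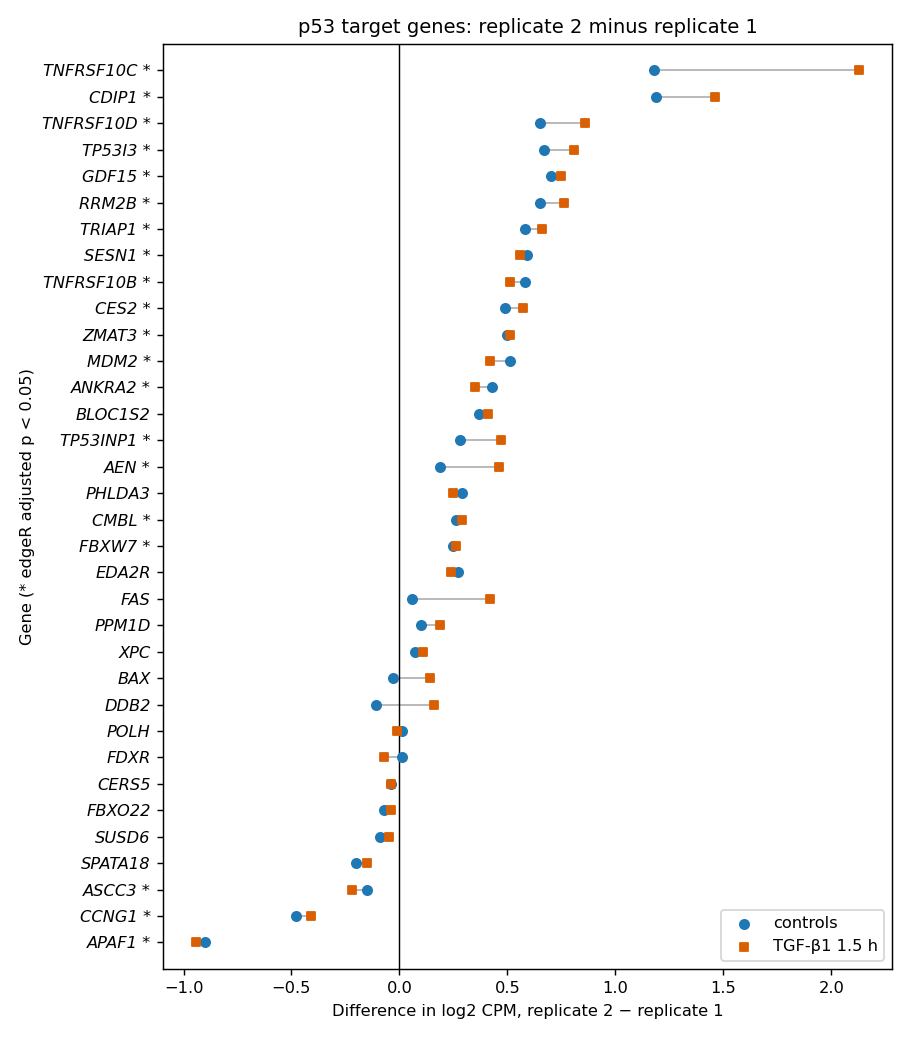
Difference in log2 CPM between replicate 2 and replicate 1 for the 34 genes, in the controls (circles) and after TGF-β1 (squares). Asterisks mark the 20 genes with an edgeR adjusted p under 0.05. Most genes lie to the right of 0, TNFRSF10C farthest, and APAF1 lies farthest to the left with -0.90 in the controls and -0.94 after TGF-β1.

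Other measures moved with the replicate number. All 12 proliferation genes examined, among them MKI67, TOP2A and CDK1, were lower in the libraries numbered 2 by edgeR, with a median log2 difference of -0.865, and their summed level was 1486 to 1580 TPM in replicates 1 and 816 to 880 TPM in replicates 2. The share of ribosomal protein mRNAs, given above, was higher there. Their part in the difference of the p53 targets was not tested.

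**Figure D2:**
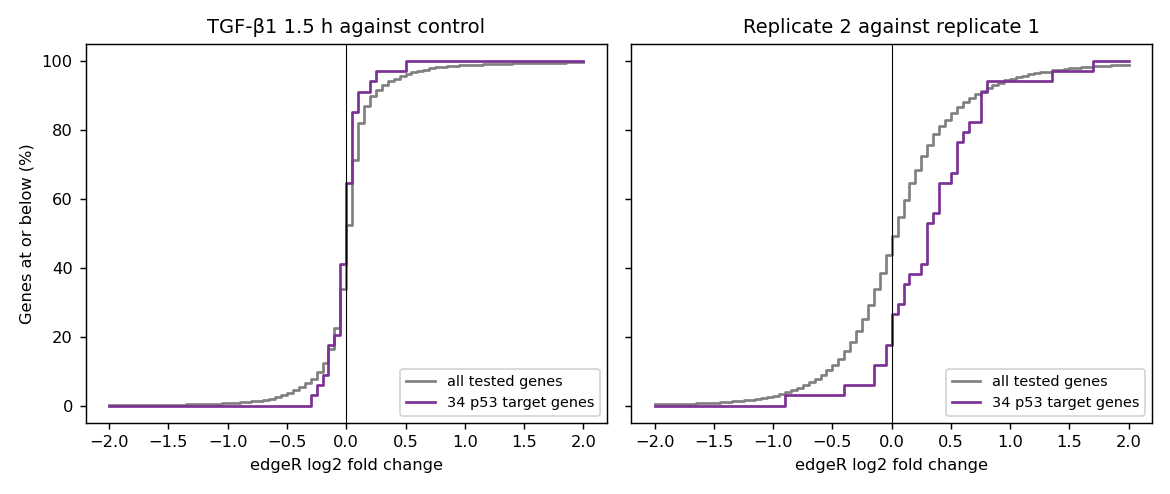
Cumulative share of genes, in percent, at or below each edgeR log2 fold change, for all 14774 tested genes (grey) and the 34 p53 targets (purple). For TGF-β1 against control the medians are close, at -0.03 for the p53 targets and -0.01 for all tested genes. At a log2 fold change of 0 the purple curve there stands at 64.71% and the grey one at 52.31%. The purple curve lies to the right for replicate 2 against replicate 1, where its median is 0.27 against 0.01.

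Among the genes that feed back on p53, MDM2 and CCNG1 went opposite ways between replicate numbers. MDM2, which ubiquitinates p53, had 131.1 and 186.4 CPM (counts relative to the size of a library) for control replicates 1 and 2, and 117.3 and 156.5 CPM in TGF-β1 replicates 1 and 2. Both libraries numbered 2 were above both numbered 1, a log2 difference of 0.46 ± 0.10 (SE; edgeR adjusted p = 0.0220). Leaving out either control replicate 2 or TGF-β1 replicate 1 ended the call for MDM2. On the TPM scale limma gave MDM2 a difference of 0.13 (adjusted p = 0.526 with a pseudocount of 1 and 0.517 with 0.1). CCNG1, whose cyclin recruits a phosphatase to MDM2, had 327.2 and 235.0 CPM in the controls and 312.4 and 235.1 CPM after TGF-β1. It was lower in the libraries numbered 2 by 1.36-fold (edgeR adjusted p = 0.00255). The log2 differences of PPM1D, the phosphatase WIP1 that dampens the damage response, and FBXO22, an F-box subunit of a ubiquitin ligase, were 0.15 and -0.06, and neither passed the test.

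Of the 5 death receptor genes, 3 were called higher in the libraries numbered 2 and 0 lower, beside 16.4% and 21.0% of all tested genes. TNFRSF10B, the TRAIL receptor DR5, had 146.4 and 219.1 CPM in control replicates 1 and 2 and 156.6 and 222.4 CPM after TGF-β1 (1.46-fold, edgeR adjusted p = 0.00222). TNFRSF10D, a decoy receptor for TRAIL with a truncated death domain, had 58.99 and 92.55 CPM in the controls and 52.87 and 95.68 CPM after TGF-β1 (1.68-fold, edgeR adjusted p = 0.00207). In both genes the libraries numbered 2 lay above those numbered 1, and control and treated libraries overlapped. TNFRSF10C, a decoy without a death domain, was rare, with 27.5 and 59.4 estimated counts in the controls and 15.4 and 63.8 after TGF-β1. It was called higher in the libraries numbered 2 (log2 difference 1.70 ± 0.33 SE, edgeR adjusted p = 0.0158). Leaving out either control replicate 2 or TGF-β1 replicate 2 ended that call. FAS, the receptor of FAS ligand, had 73.84 and 76.85 CPM in the controls and 61.38 and 82.21 CPM after TGF-β1, and did not pass. Its log2 differences were 0.06 in the controls and 0.42 after TGF-β1. EDA2R, a receptor for ectodysplasin A2, was at 6.95 to 10.2 CPM and did not pass.

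Inside the apoptosis and mitochondrial group of 8 genes, 4 were higher and 1 was lower in the libraries numbered 2. The shares over all tested genes were 16.4% higher and 21.0% lower. APAF1, the scaffold of the apoptosome that activates caspase-9, had 33.75 and 18.02 CPM in control replicates 1 and 2 and 34.18 and 17.76 CPM in TGF-β1 replicates 1 and 2. It was lower in the libraries numbered 2 by 1.90-fold, a log2 difference of -0.92 ± 0.05 (SE, edgeR adjusted p = 0.00110). No other member fell as far. TP53I3, a quinone oxidoreductase, went the other way, with 82.78 and 132.0 CPM in the controls and 81.51 and 143.0 CPM after TGF-β1 (1.67-fold, edgeR adjusted p = 0.00149). TRIAP1, a small mitochondrial protein that restrains apoptosis, had 35.59 and 53.37 CPM in the controls and 33.29 and 52.46 CPM after TGF-β1 (1.54-fold, edgeR adjusted p = 0.00205). Each of these 3 genes had its libraries sorted by replicate number and not by treatment. CDIP1, a membrane protein that promotes cell death, was rare and higher in the libraries numbered 2, with 1.74 and 4.04 CPM in the controls and 1.56 and 4.37 CPM after TGF-β1. AEN, an exonuclease that acts in apoptosis, had 53.48 and 61.02 CPM in the controls and 45.56 and 62.51 CPM after TGF-β1, and was higher in the libraries numbered 2 by 1.25-fold (edgeR adjusted p = 0.0385). BAX, which permeabilises the outer mitochondrial membrane, stayed within 36.3 and 39.98 CPM and did not pass. SPATA18, which acts in mitochondrial quality control, and PHLDA3, a competitor of AKT for membrane lipids, had log2 differences of -0.17 and 0.27 and did not pass either.

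**Figure D3:**
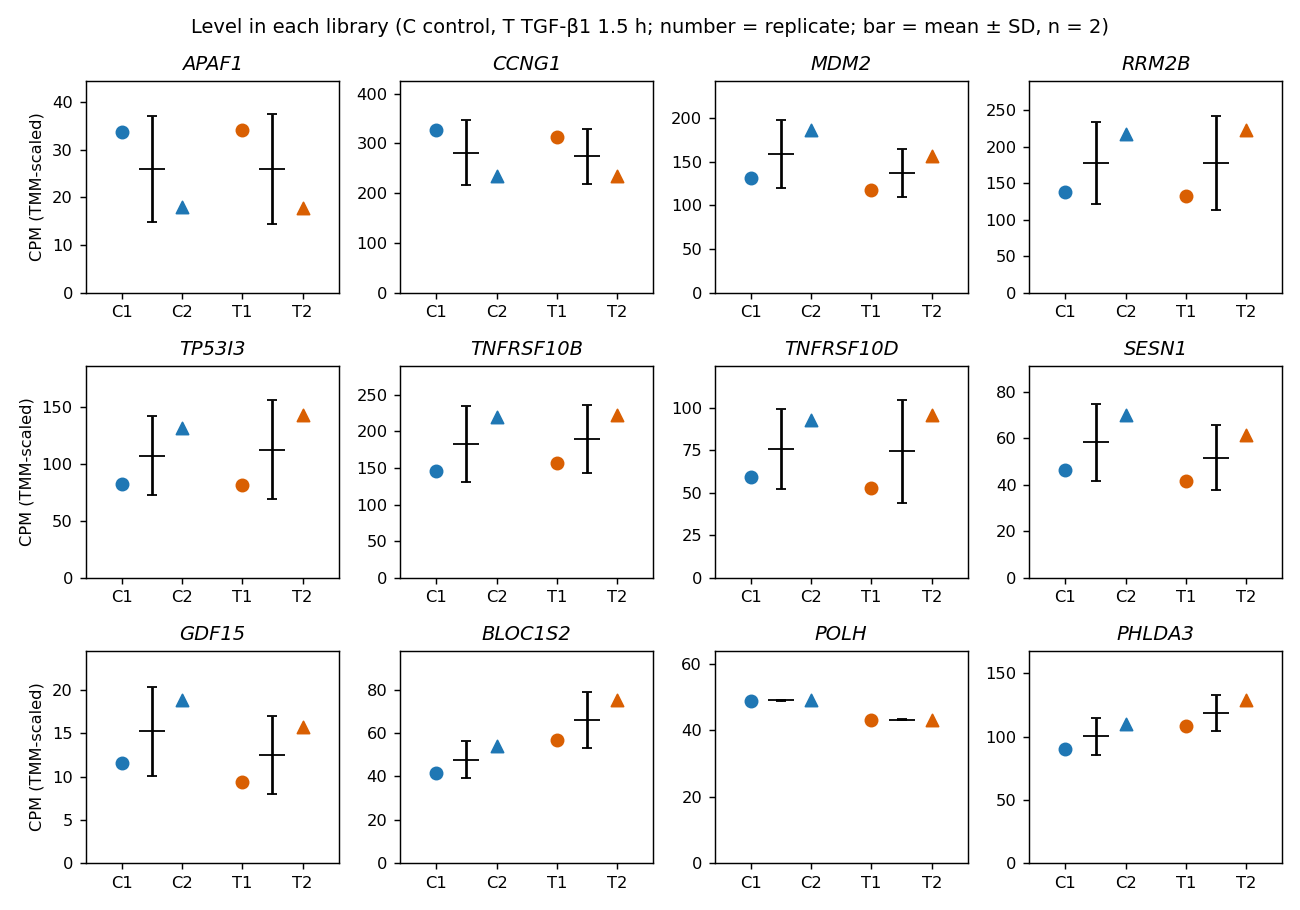
TMM-scaled CPM of 12 p53 targets in control (C) and TGF-β1 (T) libraries of replicates 1 and 2, with mean ± SD of each group (n = 2). APAF1 and CCNG1 are high in both replicates 1, whereas MDM2, RRM2B, TP53I3, the 2 TRAIL receptors, SESN1 and GDF15 are high in both replicates 2. BLOC1S2 and POLH separate by treatment.

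Of the 5 repair genes, 1 was higher and 1 lower in the libraries numbered 2, beside 16.4% and 21.0% of all tested genes. RRM2B, the p53-inducible subunit of ribonucleotide reductase, had 138.2 and 217.0 CPM in the controls and 131.8 and 223.1 CPM after TGF-β1, a difference of 1.63-fold between replicate numbers (edgeR adjusted p = 0.00122). ASCC3, a helicase used in repair of alkylated DNA, had 391.2 and 351.6 CPM in the controls and 406.4 and 348.5 CPM after TGF-β1, and was lower in the libraries numbered 2 by 1.14-fold (edgeR adjusted p = 0.0235). The damage sensors of nucleotide excision repair, XPC and DDB2, had log2 differences of 0.09 and 0.02 and did not pass. POLH, the polymerase that copies past ultraviolet lesions, did not pass (edgeR adjusted p = 0.999).

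Of the 5 metabolic genes, 3 were higher in the libraries numbered 2 and 0 lower, beside 16.4% and 21.0% of all tested genes. SESN1, a sestrin that restrains mTORC1, had 46.41 and 70.03 CPM in the controls and 41.83 and 61.50 CPM after TGF-β1 (log2 difference 0.58 ± 0.09 SE, edgeR adjusted p = 0.00752). CES2, a carboxylesterase, had 85.98 and 120.8 CPM in the controls and 79.28 and 117.8 CPM after TGF-β1 (1.44-fold, edgeR adjusted p = 0.00297). CMBL, a hydrolase, had 31.61 and 37.84 CPM in the controls and 29.76 and 36.30 CPM after TGF-β1, and was higher by 1.21-fold (edgeR adjusted p = 0.0201). FDXR, the mitochondrial ferredoxin reductase, lay between 32.0 and 33.5 CPM in all 4 libraries, and CERS5, a ceramide synthase, between 16.0 and 17.1 CPM. Neither passed.

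In the last group, of growth control, RNA and trafficking genes, 5 of 7 were higher in the libraries numbered 2 and 0 lower. The shares over all tested genes were 16.4% and 21.0%. GDF15, a secreted stress cytokine of the TGF-β superfamily, had 11.6 and 18.9 CPM in the controls and 9.36 and 15.7 CPM after TGF-β1 (1.65-fold, edgeR adjusted p = 0.0186). Leaving out control replicate 2 ended the GDF15 call. ZMAT3, a zinc-finger protein that binds RNA, had 108.4 and 152.9 CPM in the controls and 106.6 and 151.9 CPM after TGF-β1 (1.42-fold, edgeR adjusted p = 0.00163). Both genes had each library numbered 2 above each numbered 1. ANKRA2, an ankyrin-repeat adaptor, had 14.92 and 20.15 CPM in the controls and 14.37 and 18.28 CPM after TGF-β1 (1.31-fold). TP53INP1, which acts in autophagy and cell death, had 18.17 and 22.06 CPM in the controls and 15.19 and 21.06 CPM after TGF-β1 (1.29-fold). FBXW7, the substrate receptor of a ubiquitin ligase for MYC and cyclin E, had 39.97 and 47.61 CPM in the controls and 37.76 and 45.34 CPM after TGF-β1 (1.20-fold). Each of these 3 genes was higher in both libraries numbered 2, and for FBXW7 limma on log2(TPM + 1) gave a log2 difference of 0.07 against 0.26 by edgeR. SUSD6, a membrane protein with a sushi domain, and BLOC1S2, a subunit of a complex for lysosome-related organelles, did not pass, with log2 differences of -0.07 and 0.39.

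When libraries were left out one at a time, edgeR called between 11 and 20 members. The lowest count came with control replicate 2 absent and the highest with control replicate 1 absent, as it did over all tested genes. Calls over all tested genes fell in each of these fits, with counts given in the last section. The 11 genes called in each of these fits were APAF1, CCNG1, CDIP1, CES2, RRM2B, SESN1, TNFRSF10B, TNFRSF10D, TP53I3, TRIAP1 and ZMAT3, and DESeq2 called 10 of them in each of its fits, all except CDIP1. By limma on log2(TPM + 1) the calls of AEN, ANKRA2, ASCC3, CMBL, FBXW7, MDM2, SESN1 and TP53INP1 ended, and the log2 differences of the rare CDIP1 and TNFRSF10C were 0.79 and 0.75, against 1.35 and 1.70 by edgeR.

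The estimated mix of transcript starts of SESN1 differed between replicate numbers. Its transcripts begin near 3 separate RefSeq starts on chromosome 6, and the middle one, at 109009552, carried most of the estimated counts. Scaled to library size, that start gave 35.2 and 61.5 CPM in control replicates 1 and 2 and 34.2 and 53.96 CPM after TGF-β1. The far upstream start, at 109094846, gave 9.53 and 6.21 CPM in the controls and 7.41 and 6.49 CPM after TGF-β1. Its share of the counts of the gene was 20.5% and 17.7% in the replicates numbered 1 and 8.9% and 10.5% in those numbered 2. The libraries numbered 2 were thus high for the middle start and low for the upstream one, and these shares have no test. The start next to the printed half-site, at 109008988, held at most 1.9% of the counts.

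For MDM2 both main starts were higher in the libraries numbered 2 when estimated counts were scaled to library size. Transcripts from the upstream start, the side of the constitutive promoter P1, had 62.4 and 98.2 CPM in control replicates 1 and 2 and 61.2 and 84.4 CPM after TGF-β1. Those from the start behind the printed site, the side of the p53-responsive promoter P2 in intron 1, had 58.7 and 79.4 CPM in the controls and 48.2 and 64.8 CPM after TGF-β1. The share of the second was 44.8%, 42.6%, 41.1% and 41.4% in control replicates 1 and 2 and TGF-β1 replicates 1 and 2, so the replicate numbers did not separate it. These estimates divide reads shared by many MDM2 transcripts, 22 near the second start and 7 near the first, and carry an error that the files do not give. Per length the first start went the other way, with 31.1 and 24.2 TPM in control replicates 1 and 2 and 29.1 and 20.5 TPM after TGF-β1.

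**Figure D4:**
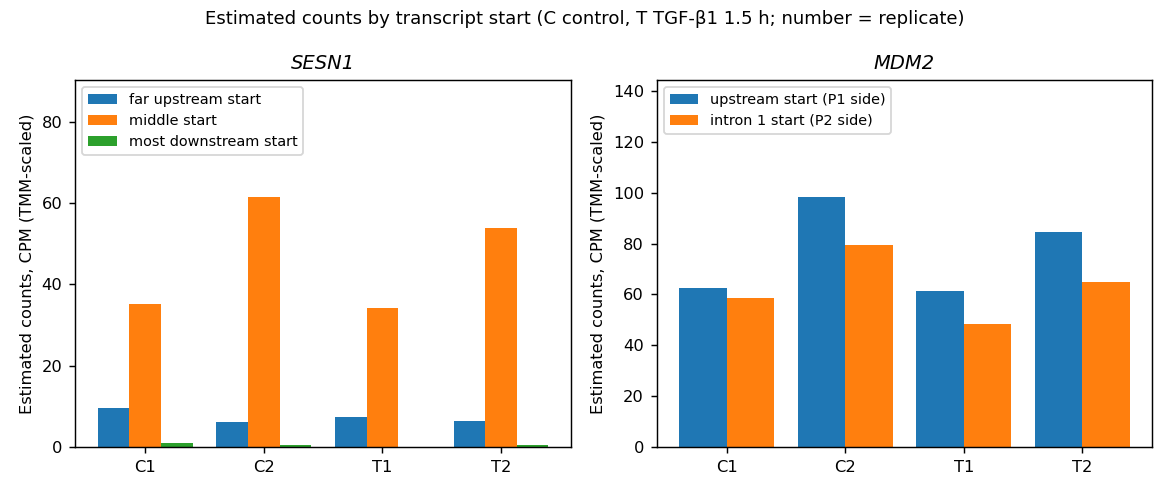
TMM-scaled estimated counts (CPM) of SESN1 and MDM2 in the 4 libraries, grouped by the nearest RefSeq start of each transcript. In SESN1 the middle start is high in both replicates 2 while the far upstream start is low there. In MDM2 both starts are higher in replicates 2 on this scale, while per length (TPM, not drawn) the upstream start is lower there.

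After 1.5 h of TGF-β1 no member passed the test. EdgeR called 0 of the 34 members (0 at an unadjusted p under 0.05) and 0 of 14774 genes (0.0%, with 1.73% of genes at an unadjusted p under 0.05), and DESeq2 called 0 members against 0.458% of genes. The log2 fold changes of the members ran from -0.30 to 0.47, with a median of -0.03 against -0.01 over all tested genes. Within replicates 1 and within replicates 2, 14 members were below and 5 above their control both times, and 15 changed sides. Over all tested genes the shares were 28.6% below and 26.3% above. In 29 of the 34 members the difference between replicate numbers was larger in size than that between TGF-β1 and control, as in 78.7% of all tested genes, both from the same 4 libraries.

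In CPM the groups did not overlap for 5 members, against 16.2% of all tested genes (7.87% higher and 8.34% lower). These were BLOC1S2 and SUSD6, with both treated libraries above both controls, and EDA2R, POLH and CERS5, with both below. BLOC1S2 had 41.65 and 53.95 CPM in control replicates 1 and 2, a mean of 47.8 ± 8.69 (SD, n = 2), and 56.83 and 75.32 CPM in TGF-β1 replicates 1 and 2, a mean of 66.1 ± 13.1 (SD, n = 2). Treated libraries were higher in both numbers, by 0.45 and 0.48 on the log2 scale, and the edgeR log2 fold change was 0.47 ± 0.21 (SE, adjusted p = 1.00). It ran from 0.26 without TGF-β1 replicate 2 to 0.67 without control replicate 2, in fits without a replicate term. Fitted with the replicate number as a block, BLOC1S2 had an adjusted p of 0.00342 by edgeR, which then called 2.27% of all tested genes, and 0.00372 by DESeq2, which called 1.58%. The labels do not say that equal numbers mark paired samples. Nearly all of its counts came from the start at 100286680 on chromosome 10, which held 1563 and 1856 estimated counts in the controls and 2062 and 2417 after TGF-β1.

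The sequence upstream of that start is shown because BLOC1S2 was the member called under that block. It covers chr10:100286731-100286930 on the minus strand, which is 250 to 51 bases before the start site. Capitals mark CAGAC, a core to which SMAD proteins are known to bind, searched on both strands. The window holds 1 copy, and 45.26% of all windows and 40.91% of member windows hold at least 1.
BLOC1S2: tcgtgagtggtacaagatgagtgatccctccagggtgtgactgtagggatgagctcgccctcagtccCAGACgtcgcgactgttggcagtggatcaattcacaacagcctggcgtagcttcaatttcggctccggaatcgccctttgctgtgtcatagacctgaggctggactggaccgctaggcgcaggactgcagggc

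For POLH, replicates lay close together. Its controls had 48.98 and 49.17 CPM and its treated libraries 43.28 and 43.08 CPM, a log2 fold change of -0.18 ± 0.10 (SE, edgeR adjusted p = 1.00). In TPM, POLH had 26.1 and 23.59 in the controls and 18.71 and 18.68 after TGF-β1. On that scale limma gave POLH a larger log2 difference, -0.39 with a pseudocount of 1 and -0.41 with 0.1. SUSD6 had 33.0 and 31.0 CPM in the controls and 36.8 and 35.6 CPM after TGF-β1. EDA2R had 8.48 and 10.2 CPM in the controls and 6.95 and 8.20 CPM after TGF-β1, where all 4 libraries lay within 272 to 374 estimated counts. CERS5 differed by less than 0.1 on the log2 scale, with 17.06 and 16.54 CPM in the controls and 16.49 and 16.02 CPM after TGF-β1.

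GDF15, MDM2 and PHLDA3 differed the same way in both numbers, although their groups overlapped in CPM. In TPM the groups of GDF15 overlapped too, but those of MDM2 and PHLDA3 did not. MDM2 had 167.1 and 186.1 TPM in control replicates 1 and 2 and 138.8 and 149.9 TPM after TGF-β1. PHLDA3 had 72.53 and 90.62 TPM in the controls and 92.5 and 99.02 TPM after TGF-β1. The log2 differences within replicates 1 and 2 were -0.31 and -0.26 for GDF15, -0.16 and -0.25 for MDM2, and 0.27 and 0.22 for PHLDA3. Together with BLOC1S2, SUSD6, EDA2R and POLH they were the 7 members that differed by at least 0.15 the same way both times, as 13.8% of all tested genes did, a selection made after the values were seen. SESN1 lay just outside it, at -0.15 and -0.19. In fits without 1 library the log2 fold change of MDM2 turned to 0.06 without control replicate 2. That of GDF15 was 0.11 and 0.04 when control replicate 2 and TGF-β1 replicate 1 were left out in turn. These fits had no replicate term, so the difference between replicate numbers entered the estimate. The turn in sign therefore cannot tell whether the difference by treatment is stable. With the replicate number as a block, the edgeR log2 fold change of MDM2 was -0.21 ± 0.05 (SE, adjusted p = 0.134). That of GDF15 was -0.29 ± 0.09 (SE, adjusted p = 0.281).

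**Figure D5:**
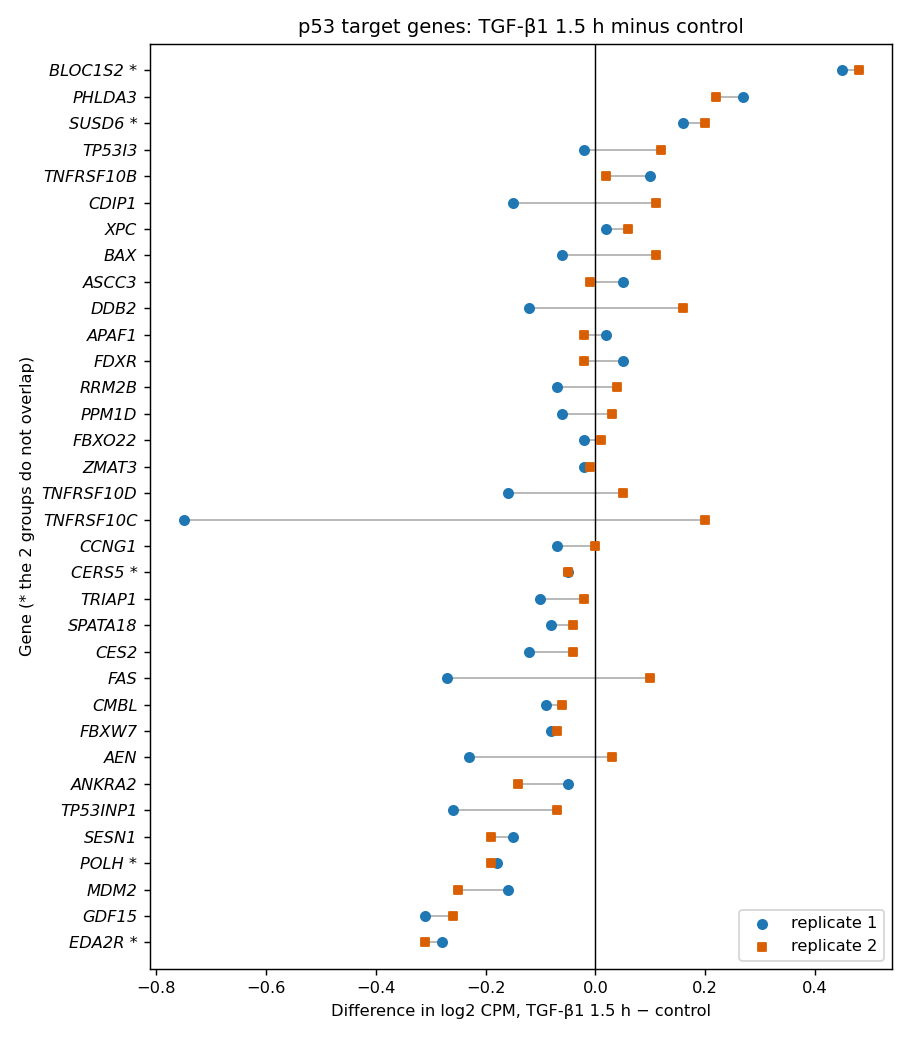
Difference in log2 CPM between TGF-β1 at 1.5 h and control for the 34 genes, within replicate 1 (circles) and within replicate 2 (squares). Asterisks mark the 5 genes whose groups do not overlap in CPM. BLOC1S2 lies farthest right at 0.45 and 0.48, and most genes lie within 0.2 of 0 or on both sides of it. TNFRSF10C, with 15.4 to 63.8 estimated counts, has the widest gap between replicates.

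The genes that control p53 were set beside its targets. Between replicate numbers edgeR called 16.4% of all tested genes higher and 21.0% lower. The median log2 difference of the tested p53 regulators was -0.05. Of these 21 regulators, 5 were higher and 1 lower in the libraries numbered 2, which is 23.8% and 4.76%. Among those higher were TP63, the p53 relative of basal epithelium, the kinase HIPK2, and RPL5 and RPL11, ribosomal proteins that can bind MDM2, and the lower one was the checkpoint kinase CHEK1 (log2 difference -0.48). MDM4, the partner of MDM2, had a log2 difference of -0.01. With TGF-β1, edgeR and DESeq2 called 0 of these regulators. At an unadjusted p under 0.05 by edgeR there was 1, DAXX, beside 1.73% of all tested genes. DAXX, a histone chaperone that can bind MDM2, had 7.05 and 5.87 CPM in the controls and 17.4 and 11.5 CPM after TGF-β1. It was called with the replicate number as a block (2.21-fold, adjusted p = 0.00409 by edgeR and 0.000227 by DESeq2). Under that block edgeR called 2.27% of all tested genes and DESeq2 1.58%.

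A further 26 genes known as p53 targets were counted in the same way. Between replicate numbers edgeR called 6 higher and 2 lower, or 23.1% and 7.69%, with a median log2 difference of 0.03. Over all tested genes the shares were 16.4% and 21.0% and the median was 0.01. The membrane protein PERP (0.41), the antiviral factor TRIM22 (0.52), the antiproliferative BTG2 (0.74) and the PIDDosome scaffold PIDD1 (0.32) were higher, and TGFA (-0.78), a ligand of the EGF receptor, and SFN (-0.32), the protein 14-3-3σ, were lower, as log2 differences. CDKN1A, the cell cycle inhibitor p21, did not pass and had 175.0 and 155.7 CPM in control replicates 1 and 2. With TGF-β1, DESeq2 called GADD45A higher (log2 fold change 1.05) and PLK2 lower (-1.68), whereas edgeR called 0, with 4 higher and 1 lower before adjustment. With the replicate number as a block, edgeR called 2.27% of all tested genes and 7 of the 26, 4 higher and 3 lower. Among them, CDKN1A, PLK3 and GADD45A were higher and PLK2, BTG2 and IER5 lower. DESeq2 with the block, which called 1.58% of genes, also called CDKN1A, PLK3, GADD45A and PLK2, but not BTG2 or IER5. CDKN1A was at 279.7 and 246.3 CPM after TGF-β1, above both controls, and with the block its edgeR adjusted p was 0.000633 (1.59-fold).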

How the data were processed

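Total RNA was depleted of ribosomal RNA, made into stranded libraries and read as paired ends, per the labels' protocols. The sample records list polyA RNA as the molecule, so the RNA selection is not settled. The extract protocol also mentions PHF8 overexpression, which no sample label names. Per the submitters' processing notes, the authors used kallisto and GRCh38, with no version or transcript release stated in the labels. The deposited tables give estimated counts, TPM and effective lengths per transcript, per the file headers. Of 173259 transcripts, 159239 (91.91%) matched GENCODE release 29, and the others held 2.24% to 2.38% of counts. Gene sums of estimated counts were rounded, and TPM were summed. The members and lists were chosen with earlier results of these data known.

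Comparisons used edgeR 4.0.16 in R 4.3.3 (TMM scaling, filterByExpr, quasi-likelihood test, no covariate, Benjamini-Hochberg adjustment). An edgeR SE is the size of the log2 fold change over the square root of F, an approximation. Differences within a number use log2 CPM with a prior count of 2. Alternatives were DESeq2 1.42.0, limma 3.58.1 on log2(TPM + 1) and log2(TPM + 0.1), RLE scaling, no or a stricter filter, a threshold of 0.01, the other factor as covariate, and each library left out. The scripts were tested on simulated data. Values per library are given for members called in either comparison by edgeR or DESeq2, or with groups apart by at least 0.5, or among the 12 largest replicate differences; other members were named after their values were seen. From each further list, up to 6 called genes with the smallest p are named, with MDM4 and CDKN1A always; some items are not reported here.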

Additional observations from a re-analysis of the deposited data

How the results depend on the processing

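For TGF-β1 against control, the count of called genes was 0 by edgeR, 90 by DESeq2 and 15 without a low-count filter, and 8 to 25 by edgeR without 1 library (67, 62, 46 and 71 by DESeq2, without control replicates 1 and 2 and TGF-β1 replicates 1 and 2, added after the data were seen). Replicate numbers share only a number in the labels. The differences between numbers correlated across genes between controls and treated libraries (r = 0.66 over 14774 genes, which are not independent replicates). With the number as a replicate block, edgeR called 335 genes and DESeq2 245, and each called 1 member, BLOC1S2 (adjusted p = 0.00342 and 0.00372). No member was called in the other fits. The log2 fold change of MDM2 ranged from -0.44 to 0.06 over edgeR fits without 1 library, and turned to 0.06 without control replicate 2 by both tools. That of GDF15 ranged from -0.69 to 0.11, and turned to 0.11 without control replicate 2 by both tools. Without TGF-β1 replicate 1 it turned to 0.04 by edgeR and 0.05 by DESeq2. These fits had no replicate term, so the difference between numbers entered the treatment estimate. For replicate 2 against 1, the 5524 genes and 20 members called became 3584 and 12 by limma on log2(TPM + 1), 3611 and 13 with a pseudocount of 0.1, and 2599 and 11 at a threshold of 0.01. DESeq2 with treatment as covariate called 3513 genes and 17 members. Without 1 library, edgeR called 3011 to 4041 genes and 11 to 20 members, and DESeq2 2549, 2325, 2431 and 2440 genes, in the order above, and 11 to 16 members. Fewer libraries enter those fits; for the other settings the cause was not tested. Over all settings and the 20 called members, the call was kept 254 times and lost 86 times, in 11 genes, with no change of direction.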
